A study of Mus musculus with 6 samples.

Results

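The effector cytokine genes Ifng, Tnf, Lta, Ltb, Csf2, Fasl, Tnfsf10, Il10 and Il2 were taken as a list of 9 symbols and looked up in the raw gene counts of vehicle- and AOA-treated CD8+ T cells. Counts were read for 8 of them, among 11922 genes in all, and Il2 was not analysed here. Splenic CD8+ T cells of 3 C57BL6/J mice, selected magnetically on surface CD8 alpha, were activated with beads carrying antibodies to CD3 and CD28. For 7 days they were cultured in recombinant human IL-2 at 100 units per ml, with water (vehicle) or with AOA at 0.25 mM. This compound, aminooxyacetic acid, blocks transaminases and other enzymes whose cofactor is derived from vitamin B6. Each mouse gave 1 vehicle and 1 AOA culture, so that replicates 1, 2 and 3 of both groups are the same mice, and the sources used here do not give the age and sex of each mouse. The beads were removed after 72 hours, and the cells measured here had then been kept in IL-2 for another 4 days, with no second stimulation named in the sources used here.

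Cytokine genes are how a killer T cell speaks to its surroundings. Ifng encodes interferon gamma, which activates macrophages and antigen presentation. Tnf, Lta, Ltb, Fasl and Tnfsf10 encode ligands of the TNF superfamily, which bind as trimers to receptors that drive NF-kB signalling or cell death. Csf2 encodes the growth factor GM-CSF, and Il10 encodes interleukin-10, which restrains inflammation. In CD8+ T cells most of these genes are transcribed in a burst after the T cell receptor is engaged, under NFAT, AP-1 and NF-kB factors, and their messages are short-lived.

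With AOA, Lta and Tnf rose, Fasl fell and the death ligand gene Tnfsf10 and the interferon gamma gene Ifng did not pass the test. Total counts were 12881962 to 18934869 in the vehicle libraries and 18696114 to 21997078 in the AOA libraries. Levels are given as CPM, counts scaled to a common library size, after TMM normalisation, which corrects for library size and composition. Each of the 11759 genes that passed the low-count filter of edgeR was tested by quasi-likelihood, and a gene is called where the p adjusted by Benjamini-Hochberg over all of them is under 0.05. Of the 8 cytokine genes 7 passed the filter and Il10 did not. Of these 7, 2 were called higher with AOA, where 26.2% of all tested genes were, and 1 was called lower, where 26.8% were. With 7 genes these counts are too small to set apart from the shares of all genes, so the list as a whole is described by its members. Its median log2 fold change was -0.18, against -0.02 over all tested genes, and it turned to 0.05 without vehicle replicate 2, so no direction can be given for the list. The libraries carried the markers of the labelled cells, with 7 CD8 T cell markers summing to 4210 to 5220 CPM with vehicle and 5130 to 6070 CPM with AOA. Over all genes vehicle replicate 2 and AOA replicate 1 stand apart from the other libraries of their groups, with a chi-square per gene of 55.1 and 59.7, and of 71.1 and 64.6, against 10 and 10.5 for the remaining pair of each group. The log2 fold changes of Lta, Tnf and Fasl were 2.40, 1.66 and -1.89 without vehicle replicate 2 and 2.24, 1.27 and -2.20 without AOA replicate 1, and all were called both times. Vehicle replicate 2 had the highest level of any library in Ifng, Csf2 and Il10, and values of these genes are given with and without it below.

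Tnf, Lta and Ltb lie side by side on chromosome 17 of GRCm38, in the part of the major histocompatibility region that holds this ligand cluster, within 11072 bases from the start of Ltb to the end of Lta. Tnf (Entrez gene 21926) runs from 35199367 to 35202007 and Lta (Entrez gene 16992) from 35203165 to 35205578, both on the minus strand, with 1157 bases between them. Ltb (Entrez gene 16994) runs on the plus strand from 35194507 to 35196305, and 3061 bases separate it from Tnf. Fasl (Entrez gene 14103) lies apart from them on chromosome 1 from 161780691 to 161788495, on the minus strand. The 250 bases that precede the transcription start of Ltb, Tnf and Fasl are shown because these genes did not move together, from RefSeq on GRCm38.p6. Capitals mark letters of 4 motifs, searched on both strands over 300 bases from 250 before the start to 50 after it. These are the NF-kB consensus, the NFAT core GGAAA, the AP-1 motif TGANTCA and the TATA box TATAAA.
Ltb, chr17:35194257-35194506, plus strand: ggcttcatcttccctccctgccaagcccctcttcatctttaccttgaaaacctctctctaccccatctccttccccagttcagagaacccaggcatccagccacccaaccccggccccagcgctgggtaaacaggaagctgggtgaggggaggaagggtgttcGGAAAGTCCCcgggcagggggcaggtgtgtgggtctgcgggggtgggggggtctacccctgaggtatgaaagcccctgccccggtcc
Tnf, chr17:35202008-35202257, minus strand: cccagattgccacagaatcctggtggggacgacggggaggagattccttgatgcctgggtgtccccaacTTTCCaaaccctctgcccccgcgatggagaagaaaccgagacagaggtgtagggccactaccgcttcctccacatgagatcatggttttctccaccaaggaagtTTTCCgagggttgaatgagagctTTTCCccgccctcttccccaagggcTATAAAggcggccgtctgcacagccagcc
Fasl, chr1:161788496-161788745, minus strand: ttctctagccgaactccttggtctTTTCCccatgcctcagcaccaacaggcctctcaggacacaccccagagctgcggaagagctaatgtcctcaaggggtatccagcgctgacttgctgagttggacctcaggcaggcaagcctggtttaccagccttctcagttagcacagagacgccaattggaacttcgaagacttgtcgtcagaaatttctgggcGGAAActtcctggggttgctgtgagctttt
The NF-kB consensus was found in Ltb, from 87 to 78 bases before the start, and in 4.51% of 32851 such windows of all genes. Its letters overlap the only NFAT core of that window. Tnf had 3 NFAT cores and a TATA box whose first base lies 29 bases before the start. Fasl had 2 NFAT cores and no TATA box. The NFAT core is short and was found in 61.3% of all windows, the TATA box in 13.6% and the AP-1 motif in 7.81%. None of the 7 cytokine genes with a window held the AP-1 motif, and Ifng held 1 NFAT core and a TATA box. The window of Lta is anchored 227 bases inside the span of the gene, so its bases are not shown. A match is a description of letters and not a binding site.

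Lta encodes lymphotoxin alpha, which is secreted as a trimer or held at the membrane by lymphotoxin beta. It had 18.3, 20.4 and 18.2 CPM in the vehicle libraries of mice 1, 2 and 3, and 103, 89.0 and 89.7 CPM in their AOA libraries. Every AOA library lay above every vehicle library, as was the case, by any margin, for 31.0% of all tested genes. The rise was 4.94-fold, or 2.31 ± 0.14 (standard error) in log2 units (edgeR, adjusted p = 1.26e-05). Within mice 1, 2 and 3 the difference of log2 CPM was 2.49, 2.12 and 2.29. Of all tested genes 5.94% had a larger absolute log2 fold change than Lta.

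Tnf encodes tumour necrosis factor, made as a membrane protein and released by the protease ADAM17. Its level was 20.9, 28.7 and 14.3 CPM in the vehicle libraries of mice 1, 2 and 3 and 59.9, 58.6 and 44.2 CPM in their AOA libraries. The groups did not overlap, although vehicle libraries spread over a wider range for Tnf than for Lta. Tnf rose 2.54-fold, or 1.35 ± 0.24 (standard error) in log2 units (edgeR, adjusted p = 0.00163), and its within-mouse differences were 1.51, 1.03 and 1.62. With each library left out the log2 fold change stayed between 1.15, without vehicle replicate 3, and 1.66, without vehicle replicate 2, and the gene was called each time.

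Ltb encodes lymphotoxin beta, the membrane anchor of the lymphotoxin heterotrimer. It was at 400.2, 395 and 378 CPM with vehicle and at 350, 312 and 374 CPM with AOA. All AOA libraries lay below all vehicle libraries, as for 31.1% of tested genes, by a small margin that the test did not call. The log2 fold change was -0.18, with a 95% interval from -0.49 to 0.13 (adjusted p = 0.297 by edgeR). A rise of the size seen in Tnf or Lta lies outside that interval. Reads of Ltb could be split with Mir6973a, a microRNA gene inside it that has its own row with 8 to 38 counts per library.

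The genes on either side of the cluster did not follow Tnf and Lta. Nfkbil1, which begins 14596 bases beyond Lta, was at 52.1 ± 17.2 CPM with vehicle and 17.6 ± 2.75 CPM with AOA (each mean ± SD, n = 3). It fell by 1.56 on the log2 scale (adjusted p = 8.16e-04 by edgeR). Lst1, on the other flank of Ltb, is a gene of low level here, at 3.50 ± 1.09 CPM with vehicle and 1.5 ± 0.437 CPM with AOA (each mean ± SD, n = 3), and it was called lower as well (log2 fold change -1.22, adjusted p = 0.018 by edgeR), a call lost without vehicle replicate 1 or 3 or AOA replicate 2 or 3 (adjusted p from 0.052 to 0.0846). These flanks were chosen by position as the nearest tested protein-coding genes.

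**Figure D1:**
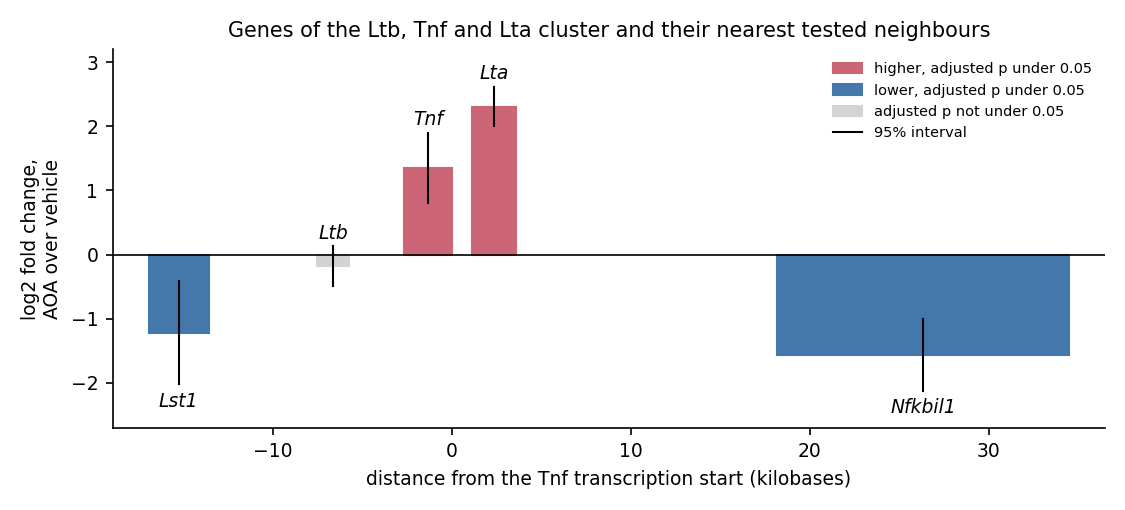
Genes of the Ltb, Tnf and Lta cluster and their nearest tested neighbours, drawn at their distance in kilobases from the Tnf transcription start (x axis) with the log2 fold change of AOA over vehicle as bar height (y axis, edgeR, lines are 95% intervals, 3 libraries per group). Lta (2.31) and Tnf (1.35) stand above 0, Ltb (-0.18) has an interval across 0, and Lst1 (-1.22) and Nfkbil1 (-1.56) lie below.

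Because the ratio of 2 genes within a library does not depend on how libraries are scaled, the ligand genes were also set against each other per base of length. The ratio of Lta to Ltb, the partners of the heterotrimer, was 0.0363, 0.0409 and 0.0382 in the vehicle libraries of mice 1, 2 and 3 and 0.234, 0.226 and 0.190 in their AOA libraries. On the log2 scale this was a shift of 2.49, from -4.70 ± 0.09 to -2.21 ± 0.16 (SD, n = 3, exact permutation p = 0.1, two-sided). Lta also gained on Tnf, with ratios of 1.05, 0.850 and 1.52 in vehicle and 2.06, 1.82 and 2.42 in AOA libraries. That shift was 0.92 on the log2 scale, and the groups did not overlap (exact permutation p = 0.1). Of 4 ratios computed, each had an exact permutation p of 0.1, also after adjustment, which is the smallest that 3 against 3 libraries can give.

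Fasl encodes Fas ligand, which kills cells that carry the receptor Fas. It was steady in the vehicle libraries, at 77.8, 78.0 and 76.0 CPM, and stood at 27.1, 20.1 and 13.6 CPM in AOA replicates 1, 2 and 3. No library of one group came near the other. Fasl fell 3.81-fold, or -1.93 ± 0.23 (standard error) in log2 units (edgeR, adjusted p = 1.69e-04). The within-mouse differences were -1.52, -1.95 and -2.48, and 8.91% of tested genes had a larger absolute log2 fold change.

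Tnfsf10 encodes TRAIL, the other death ligand of the list, which binds the receptor encoded by Tnfrsf10b. Its levels were 64.2, 59.2 and 68.9 CPM with vehicle and 80.1, 58.6 and 65.2 CPM with AOA, and the groups overlapped. The log2 fold change was 0.08 with a 95% interval from -0.25 to 0.42 (adjusted p = 0.662 by edgeR), and it was -0.05 without AOA replicate 1. Per base of length Fasl exceeded Tnfsf10 by ratios of 3.10, 3.37 and 2.82 in the vehicle libraries. In AOA libraries the ratios were 0.864, 0.877 and 0.532, so that Tnfsf10 was then the more abundant message of the pair (log2 shift -2.06, exact permutation p = 0.1).

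Ifng was a low message at this time, with 52, 134 and 56 counts in the vehicle libraries of mice 1, 2 and 3 and 108, 52 and 60 counts in their AOA libraries. In CPM these were 4.13, 8.49 and 3.04 with vehicle and 4.96, 2.75 and 3.03 with AOA. Vehicle replicate 2 was the only library above 5 CPM, and without it the groups overlapped closely. The log2 fold change was -0.54, with a 95% interval from -1.46 to 0.38 (adjusted p = 0.293 by edgeR). Without vehicle replicate 2 it was 0.05. The direction differed among mice, at 0.26, -1.59 and -0.01, and so no direction can be given for Ifng. With vehicle, 17.5% of tested genes had a lower mean CPM than Ifng.

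Csf2 lay lower still, with 20, 31 and 24 counts with vehicle and 29, 25 and 12 counts with AOA. Its levels of 1.59, 1.97 and 1.30 CPM with vehicle overlapped those of 1.33, 1.32 and 0.605 CPM with AOA. The log2 fold change of -0.57 had a 95% interval from -1.46 to 0.32 (adjusted p = 0.252 by edgeR). It was -0.36 without vehicle replicate 2 and -0.28 without AOA replicate 3. At this depth a change of 2-fold in Csf2 would lie within that interval when downward but not when upward.

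Il10 was near the limit of detection, with 7, 18 and 9 counts in the vehicle libraries of mice 1, 2 and 3 and 2, 0 and 0 counts in their AOA libraries. Every vehicle library had more counts than any AOA library, and the low-count filter removed the gene from the main test. From the summed counts, 34 with vehicle and 2 with AOA, the vehicle level was 22 times the AOA level, with an exact 95% interval from 5.63 to 189 that covers counting error only. Without vehicle replicate 2, with 16 vehicle counts left, it was 15.6 times (exact 95% interval from 3.67 to 140). Without the filter edgeR called Il10 lower with AOA (log2 fold change -4.18, standard error 0.92, adjusted p = 0.00452), and so did DESeq2 (-4.49, standard error 1.42, adjusted p = 0.00413). These fits called 25.9% and 26.8% of all genes lower. In them 2 of 8 cytokine genes were called lower, Fasl and Il10. With the filter kept, Il10 was tested and called lower without vehicle replicate 3 (adjusted p = 0.00494) or AOA replicate 1, which leaves 0 AOA counts (0.0116), AOA replicate 2 (0.0122) or AOA replicate 3 (0.0154), and it was removed by the filter without vehicle replicate 1 or 2. In each of these fits that tested it, Il10 passed the filter only through vehicle libraries, the group where it is high. These calls are therefore no separate support for a fall.

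**Figure D2:**
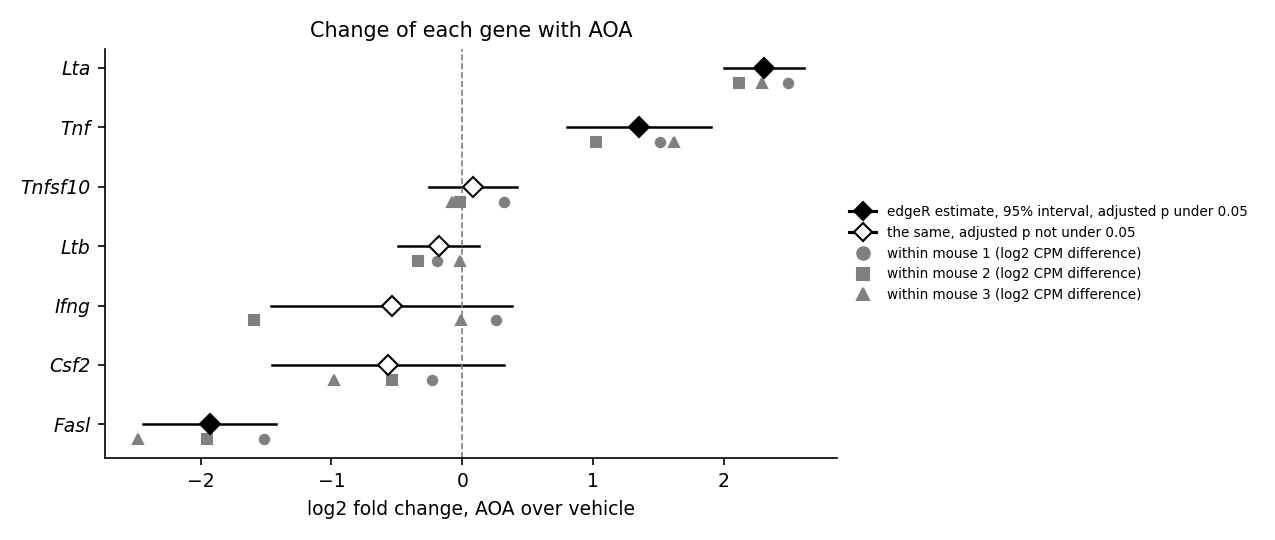
Log2 fold change of AOA over vehicle (x axis) for the 7 tested cytokine genes (y axis), with the edgeR estimate and its 95% interval as a diamond and line and the log2 CPM difference within each of 3 mice as grey symbols. Lta (2.31), Tnf (1.35) and Fasl (-1.93) have intervals clear of 0 and all 3 mice on one side, while the mice disagree for Ifng.

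Ordered by level per kilobase of gene length, Ltb led in both groups, at 357 ± 10.5 CPM per kilobase (SD, n = 3) with vehicle and 315 ± 28.7 CPM per kilobase (SD, n = 3) with AOA. In vehicle libraries Fasl came next at 40.0 ± 0.575, followed by Lta at 13.7 ± 0.889, Tnfsf10 at 13.0 ± 0.984 and Tnf at 12.9 ± 4.36 CPM per kilobase (SD, n = 3). The ranges of these last 3 genes overlapped, so their order is not resolved. In AOA libraries Lta stood after Ltb at 67.9 ± 5.79 and Tnf followed at 32.8 ± 5.25, both with ranges clear of their neighbours. Tnfsf10 at 13.7 ± 2.24 and Fasl at 10.5 ± 3.49 CPM per kilobase (SD, n = 3) overlapped. Ifng, Csf2 and Il10 were the lowest in both groups, in that order. The sum of all 8 genes was 425 to 455 CPM per kilobase with vehicle and 410 to 466 with AOA. Ltb made up 79.3% to 81.3% of that sum with vehicle and 68.6% to 74.8% with AOA. Lta went from 2.95% to 3.25% of the sum to between 14.2% and 16.0%, and Fasl from between 8.87% and 9.25% to between 1.54% and 3.00%.

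**Figure D3:**
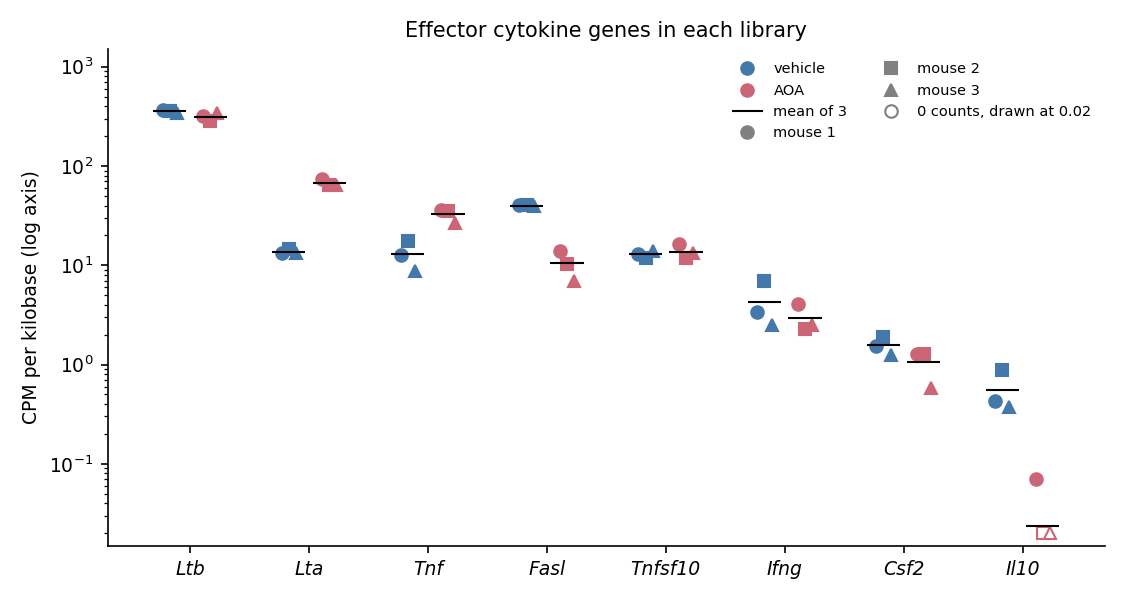
Level of each cytokine gene in each library in CPM per kilobase on a log axis (y), with vehicle in blue, AOA in red, mice 1 to 3 as symbols and group means of 3 as bars. Ltb lies at or above 284.8 in all libraries, Lta and Tnf separate upward and Fasl and Il10 downward with AOA, and the 2 AOA libraries with 0 Il10 counts are drawn at 0.02 as open symbols.

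To describe which genes share a cytokine gene's pattern, the log2 CPM of each tested member was correlated with that of 8757 genes of at least 10 CPM over the 6 libraries. The 2 most alike are given, as a description. The libraries share their group and mouse, and for Ifng, Ltb, Csf2 and Tnfsf10, the likeness does not follow a called difference between groups. For Lta these were Hmgb3 and Tfrc (both r = 0.9993), of which Tfrc encodes the transferrin receptor. For Tnf they were Trmt11 (r = 0.998) and Gzmm (r = 0.994), which encodes granzyme M. For Fasl they were Crebl2 and Sp4 (both r = 0.996). Ifng was closest to Gm16907 (r = 0.993) and Dpy19l4 (r = 0.978), Ltb to Eps15 (r = 0.982) and Habp4 (r = 0.970), Csf2 to St3gal6 (r = 0.984) and Kdsr (r = 0.966), and Tnfsf10 to Zfp729a (r = 0.986) and Ccdc59 (r = 0.985).

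The receptors of these cytokines were mostly lower or not called. Of 16 receptor genes tested, edgeR called 7 lower and 0 higher, against 26.8% and 26.2% of all tested genes, and their median log2 change was -0.59, or -0.30 without vehicle replicate 2, when 1 was called higher. Ifngr1, the ligand-binding chain for interferon gamma, fell from 1817 ± 307 to 553 ± 58.2 CPM (SD, n = 3), a log2 fold change of -1.72 (adjusted p = 1.20e-04 by edgeR). Its partner Ifngr2 was at 25.7 ± 17.5 CPM with vehicle and 25.2 ± 1.47 CPM with AOA (each mean ± SD, n = 3) (log2 fold change -0.03, adjusted p = 0.96), but without vehicle replicate 2 it was called lower (-0.47, adjusted p = 0.0253). Both TNF receptors were lower, Tnfrsf1b by 0.88 (adjusted p = 0.00263) and Tnfrsf1a by 0.68 (adjusted p = 0.0373), the latter a call that was lost on leaving out any library but vehicle replicate 2, with adjusted p from 0.0731 to 0.154. Tnfrsf14, which lymphotoxin alpha can bind, fell by 0.88 on the log2 scale (adjusted p = 0.00339). Ltbr, Csf2rb and Csf2rb2 were not analysed here, and Csf2ra was not called (log2 fold change -0.49, adjusted p = 0.32).

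Among death receptors, Fas was at 29.1 ± 10.5 CPM with vehicle and 32.3 ± 8.55 CPM with AOA (each mean ± SD, n = 3) and was not called (log2 fold change 0.15, adjusted p = 0.69 by edgeR). The TRAIL receptor gene Tnfrsf10b was not called either (0.43, adjusted p = 0.106), except without vehicle replicate 2 (0.70, adjusted p = 0.00489). The decoy receptor genes Tnfrsf23 and Tnfrsf22, whose products bind TRAIL without a death signal, fell by 3.29 and 1.91 on the log2 scale (adjusted p = 7.44e-05 and 7.01e-05 by edgeR). Tnfrsf11b, which encodes a soluble decoy, was not called (-1.85, adjusted p = 0.144) but was when mice were a replicate block (-1.44, adjusted p = 0.0179). Its counts were 9, 136 and 13 with vehicle and 13, 36 and 6 with AOA, and leaving out vehicle replicate 2 turned the direction (0.41, adjusted p = 0.642). For interleukin-10, Il10ra fell by 1.01 (adjusted p = 5.39e-04) while Il10rb was not called (0.26, adjusted p = 0.124). The 3 chains of the receptor for the interleukin-2 in the medium were not called, with log2 fold changes of 0.03 for Il2ra, -0.32 for Il2rb and 0.15 for Il2rg and adjusted p of 0.95, 0.314 and 0.511.

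Genes that carry signals from these receptors were lower in 14 of 23 cases and higher in 1 (all tested genes, 26.8% and 26.2%), with a median log2 fold change of -0.59. Traf1, Jak3 and Jak1 fell most, by 1.54, 1.53 and 1.51 on the log2 scale, and the adaptor of the Fas receptor, Fadd, rose by a log2 fold change of 0.90 (adjusted p = 0.00201 by edgeR). Without vehicle replicate 3 the lower genes numbered 9, and the higher ones numbered 3 without vehicle replicate 2 and 2 without AOA replicate 1. Of 29 transcription factor genes that act on cytokine loci, 16 were lower and 0 higher by edgeR, where 26.8% and 26.2% of all tested genes were, with a median of -0.68. The count higher was 1 by DESeq2. Egr1 fell by 2.83, Fosl2 fell by 2.78 and Maf fell by 2.46 on the log2 scale, where Maf is an activator of Il10 in T cells. Among NFAT genes Nfatc3 was lower (-0.63, adjusted p = 0.0111, or 0.0544 without vehicle replicate 3), and Nfatc1 (-0.42, adjusted p = 0.0516) and Nfatc2 (-0.08, adjusted p = 0.706) were not called. Of the Jun genes of AP-1, Junb fell by 1.42 (adjusted p = 2.16e-04), and Jun (-0.17, adjusted p = 0.431) and Jund (0.43, adjusted p = 0.0613) were not called. Jund was called higher without vehicle replicate 1 (0.66, adjusted p = 0.0132). Of the Fos genes Fosl2 was lower, as given, and Fosl1 (-0.17, adjusted p = 0.737) and Fos (1.08, adjusted p = 0.0717) were not called, though Fos was without AOA replicate 3 (1.43, adjusted p = 0.02). Of 5 NF-kB subunit genes 4 were lower, with log2 fold changes of -0.98 for Nfkb1, -0.94 for Nfkb2, -0.68 for Rel and -1.23 for Relb, and Rela was not called (-0.22, adjusted p = 0.28). Tbx21, an activator of Ifng, was lower (-0.74, adjusted p = 0.00836), and the related gene Eomes was not called (0.04, adjusted p = 0.895).

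Genes known to be induced through NF-kB or by interferon gamma were lower more often than higher, against a background of 26.8% of all tested genes lower and 26.2% higher. Of 19 NF-kB target genes 14 were lower and 0 higher by edgeR, and the median of their log2 fold changes was -1.23, and 13 to 15 were lower with each library left out. This list leaves out the cytokine genes themselves, so Tnf and Lta, which rose, are not counted in it. The lists also share genes. Birc3 and Traf1 are counted among the signalling genes too, and Nfkb2 and Relb among the transcription factors. Irf1 is both a transcription factor and an interferon gamma target here. Without vehicle replicate 2 the median was -0.98. Ccl5, which encodes a chemokine of effector cells, fell by 5.22 on the log2 scale. Tnfaip3 and Bcl3, which encode regulators of NF-kB, had log2 fold changes of -3.45 and -2.20. The inhibitor gene Nfkbia fell by 1.02 (adjusted p = 2.92e-04), and Nfkbiz was not called (0.08, adjusted p = 0.816). Of 17 interferon gamma target genes 11 were lower and 1 higher, with a median of -0.68, but 7 were lower without vehicle replicate 3 and 5 without AOA replicate 1, the latter a share near that of all genes. Cd274, which encodes PD-L1, fell by 1.52 (adjusted p = 1.87e-04). Iigp1 fell by 1.39 and Irf8 by 1.18, and neither was called without AOA replicate 1 (adjusted p = 0.0543 and 0.101). Iigp1 was also not called without AOA replicate 2 (0.0509), nor Irf8 without AOA replicate 3 (0.0748), and the log2 fold change of Irf8 was -0.58 without vehicle replicate 2. With each library left out that of Iigp1 ranged from -1.68 to -0.83. Psmb8 rose (0.44, adjusted p = 0.0263), a call lost when mice were blocked (adjusted p = 0.051) and on leaving out vehicle replicate 1 or 3 or AOA replicate 2 or 3 (adjusted p from 0.0602 to 0.0735).

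**Figure D4:**
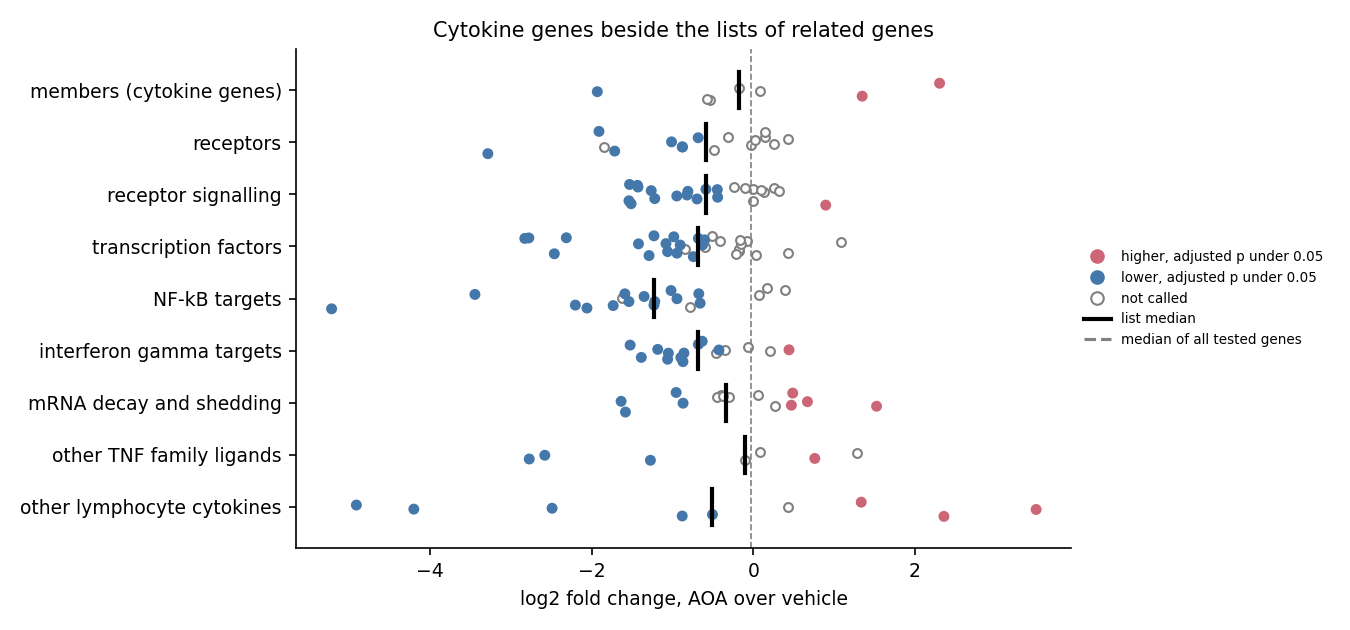
Log2 fold change of AOA over vehicle (x axis) for each tested cytokine gene and for 8 lists of related genes (y axis), with genes called higher in red, called lower in blue and not called open, list medians as black bars and the median of all tested genes as a dashed line. The cytokine genes have a median of -0.18 (0.05 without vehicle replicate 2) with Lta and Tnf far to the right. The NF-kB targets, a list that leaves out Tnf and Lta, have a median of -1.23 and 0 genes called higher. Some genes stand in more than 1 list.

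Proteins that bind AU-rich elements or stem-loops of cytokine messages, and the proteases that shed TNF and Fas ligand, were called at shares near those of all genes. Of 14 such genes 4 were higher and 4 lower, where 26.2% and 26.8% of all tested genes were, and the median of their log2 fold changes was -0.34, or -0.10 without vehicle replicate 2. Zfp36, Zfp36l2 and Zc3h12a, whose products speed the decay of cytokine messages including that of Tnf, fell by 1.64, 1.58 and 0.96 on the log2 scale (adjusted p = 8.46e-04, 6.42e-05 and 8.33e-04 by edgeR). Elavl1, whose product stabilises such messages, rose by a log2 fold change of 0.67 (adjusted p = 0.00176), and Hnrnpd, which encodes AUF1, a factor mostly known to promote their decay, rose by 1.53 (adjusted p = 5.62e-04). Khsrp, whose product also promotes decay, was higher (0.49, adjusted p = 0.0391), but not when mice were a replicate block (0.0513) or without vehicle replicate 2 or 3 or AOA replicate 2 or 3 (adjusted p from 0.0658 to 0.127). The number higher was 2 without AOA replicate 2 and 2 without AOA replicate 3. Adam17 was not called (0.27, adjusted p = 0.113) except without AOA replicate 1 (0.37, adjusted p = 0.0177). Adam10, which cleaves Fas ligand, rose (0.47, adjusted p = 0.0195), a call lost without vehicle replicate 1 or AOA replicate 2 or 3 (adjusted p from 0.0682 to 0.0801).

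Other ligands of the TNF superfamily gave counts too small to set apart from the 26.2% higher and 26.8% lower of all tested genes. Of 7 tested, 1 was higher and 3 were lower, and the median of their log2 fold changes was -0.11, or 0.16 without vehicle replicate 3. Tnfsf13b fell by 2.77, Cd40lg fell by 2.58 and Tnfsf9 fell by 1.27 on the log2 scale. Tnfsf8 rose (0.76, adjusted p = 0.025 by edgeR), but was not called without vehicle replicate 1 or 3 or AOA replicate 1 or 3 (adjusted p from 0.0558 to 0.1). Tnfsf4, the next tested gene to Fasl on one side, was not called (1.28, adjusted p = 0.131) but was on leaving out vehicle replicate 2 (2.94, adjusted p = 2.32e-05) or when mice were a replicate block (1.87, adjusted p = 0.0235). Of 9 other cytokine genes tested 3 were higher and 5 lower. Lif and Osm, members of the interleukin-6 family, rose by log2 fold changes of 3.50 and 2.36 (adjusted p = 2.33e-05 and 4.47e-05 by edgeR), from 8.84 ± 3.93 to 100.6 ± 3.14 CPM for Lif and from 28.9 ± 8.89 to 148 ± 14.6 CPM for Osm (SD, n = 3). Mif rose by 1.34. Csf1 fell by 4.91, Ebi3 fell by 4.2 and Il18 fell by 2.49 on the log2 scale. Il18 was low, with 8, 41 and 33 counts with vehicle and 7, 3 and 8 with AOA. Its differences within mice 1, 2 and 3 were -0.78, -3.33 and -1.88. The log2 fold change was -4.09 for Csf1 without vehicle replicate 2 and -5.24 for Ebi3 without AOA replicate 2.

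These were bulk cultures, in which fewer cells of a type and less RNA per cell cannot be told apart, and cells other than CD8 T cells also express several of these genes. The marker counts below stand beside 26.8% of all tested genes called lower and 26.2% called higher. Of 5 CD4 T cell markers 4 were lower with AOA, and Foxp3 was not called (log2 fold change 0.36, adjusted p = 0.127 by edgeR). The summed level of the 5 was 176 to 229 CPM in vehicle and 39.4 to 65.9 CPM in AOA libraries. Of 3 tested myeloid markers all were lower, and 5 measured ones summed to 78.3 to 111 CPM with vehicle and 5.19 to 10 CPM with AOA. Cd68 was at 14.4 ± 0.962 CPM with vehicle and 3.83 ± 0.605 CPM with AOA (each mean ± SD, n = 3). Itgam, which had 45.4 CPM on average with vehicle, and Itgax, which had 36.3, made up most of the vehicle sums. In each AOA library Cd68 was the largest part. Cd14 and Lyz2 were at or below 1.16 CPM in each library and were not tested. Lyz2 went the other way in each mouse, at 0, 0.317 and 0 CPM with vehicle and 0.276, 1.16 and 0.101 CPM with AOA. Of 3 tested NK cell markers 2 were lower, and the 4 measured ones summed to 156 to 328 CPM with vehicle and 135 to 221 CPM with AOA. Most of that sum was Eomes, which CD8 T cells also express and which was not called. Klrb1c fell from 57.7 to 7.14 CPM (log2 fold change -3.02, or -2.07 without vehicle replicate 2, adjusted p = 0.0031 by edgeR) and Klre1 fell from 18.2 to 6.72 CPM (adjusted p = 0.00623 by edgeR), and Ncr1 was at or below 2.35 CPM in each library. Of 4 B cell markers 1 was higher, Cd79b, and their sum was 12.6 to 16.6 CPM with vehicle and 22.6 to 30.7 CPM with AOA. Of 2 tested mast cell or basophil markers 1 was lower, with sums of 13.8 to 38.2 CPM and 6.67 to 14.6 CPM. This was Cpa3, at 9.0 CPM on average with vehicle and 0.365 CPM with AOA (log2 fold change -4.60, or -3.27 without vehicle replicate 2), while Kit was not called except without AOA replicate 2 (-0.86, adjusted p = 0.0458). Of the CD8 T cell markers Cd8a (1.03, adjusted p = 0.00128) and Cd8b1 (0.64, adjusted p = 0.0148) were higher and Cd2 was lower (-0.61, adjusted p = 0.0112), calls that were lost for Cd8b1 without AOA replicate 3 (0.0634) and for Cd2 without vehicle replicate 3 or AOA replicate 2 or 3 (adjusted p from 0.0525 to 0.0577). The sums for CD4 T cells and myeloid cells, and the markers Klrb1c, Klre1, Cpa3 and Cd2, moved in the direction of Fasl and Il10 and against that of Tnf and Lta, and the B cell sum, Cd8a and Cd8b1 moved in the direction of Tnf and Lta. The part of these cells in the results was not tested.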

How the data were processed

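RNA of CD8+ T cells from 3 mice was sequenced after 7 days with vehicle or AOA. The authors prepared stranded mRNA libraries, mapped paired reads with STAR on its default options, and the deposited counts are raw, of reads mapped to a single place. The submitters' processing notes also name bcl2fastq, featureCounts, DESeq2 and mm10. Not given in the sources used here are versions, the annotation, the strand setting and whether genes were filtered.

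The tests used edgeR 4.0.16 in R 4.3.3 (filterByExpr with a minimum count of 10, TMM, robust quasi-likelihood test, Benjamini-Hochberg threshold 0.05). Standard errors and 95% intervals come from that fit, and log2 CPM has a prior count of 2. CPM per kilobase uses the deposited gene length. Alternatives were DESeq2 1.42.0, scaling by median-of-ratios size factors or by library totals, no filter, the mouse as a replicate block and each library left out. The steps were tested on simulated data in which few genes changed, unlike here. That test does not cover scaling where many genes change. The members and lists were chosen with earlier results of these data known, and from each list up to 3 called genes per direction with a mean of at least 1 CPM were named by size of change, with all receptors. Other genes of these lists, and the flanks of the cluster, were named after their values had been seen.

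Mouse numbers in the labels pair the groups. Deviations from group means correlated within mice 1, 2 and 3 with r of 0.0868, 0.189 and 0.194 over 11759 genes. Replicates differed by more than sampling noise (chi-square per gene 10 to 71.1). An exact permutation test of 3 against 3 libraries cannot give p below 0.1. Positions and promoters come from RefSeq on GRCm38.p6, the assembly that mm10 names, with promoters for 7 of the 8 genes.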

Additional observations from a re-analysis of the deposited data

How the results depend on the processing

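The calls of Lta, Tnf and Fasl and the lack of a call for Ltb, Tnfsf10, Ifng and Csf2 held under every alternative. Il10, Csf2 and Ifng had low counts, and Ifng also spread widely between the vehicle libraries. What limits the test of each was not tested. For the changes below the cause was not tested, except that Il10 adds to the count of lower cytokine genes where it passes the low-count filter or no such filter is used.

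With the mouse as a replicate block, 1 transcription factor gene was higher where the fit without it called 0, 2 other TNF family ligands were higher instead of 1, and 0 interferon gamma targets were higher instead of 1. Ifngr2 (0.26 under the block, 0.0005 with total counts only and 0.0024 without the filter) and Il2ra (-0.0143) changed sign, and neither was called there. Pairing changed the call of no cytokine gene and no other count by more than 1.5 times. Besides the genes given with their blocked values above, the block called Jund, Nfatc1 and Ccl3 (adjusted p = 0.0464, 0.047 and 0.0207 by edgeR).

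DESeq2 and the fit without the low-count filter each called 2 cytokine genes lower and 1 transcription factor gene higher. The log2 fold change of Il10 was -4.49 with DESeq2 and -4.18 without the filter.

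With each library left out, 4952 to 6796 of all genes were called, 2 cytokine genes were higher and 1 to 2 were lower. The log2 fold changes ranged from -0.85 to 0.0516 for Ifng, from 1.15 to 1.66 for Tnf, from 2.24 to 2.40 for Lta, from -0.24 to -0.11 for Ltb, from -0.74 to -0.28 for Csf2, from -2.20 to -1.71 for Fasl, from -0.0494 to 0.19 for Tnfsf10 and from -4.43 to -3.71 for Il10 where it passed the filter and AOA libraries held a count. Counts of higher genes ranged from 0 to 1 for receptors, 1 to 3 for signalling genes, 0 to 1 for transcription factors, 2 to 5 for decay and shedding genes, 0 to 2 for other TNF family ligands and 0 to 1 for interferon gamma targets. Lower genes numbered 9 to 14 for signalling genes and 5 to 13 for interferon gamma targets. For single genes that changed sign, the log2 fold change ranged from -0.4675 to 0.4671 for Ifngr2, -0.0838 to 0.4072 for Fas, -2.8641 to 0.4084 for Tnfrsf11b, -0.3609 to 0.3208 for Il2ra, -0.1528 to 0.0803 for Dpy19l4, -0.0557 to 0.1514 for Zfp729a and -0.0334 to 0.172 for Ccdc59. The Il10 ratio without vehicle replicate 2 was chosen after seeing the data.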
